A study of Homo sapiens with 19 samples.

Results

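The change that a YAP siRNA made in HepG2 cells was compared between cells that did and did not also receive a TAZ siRNA. All 19 of the 19 arrays of the series entered the comparison, and each of 25579 genes was then sorted by whether the YAP and TAZ changes added up, combined to more than their sum, or combined to less. HepG2 is an established human liver cancer cell line, and a small interfering RNA (siRNA) is a short duplex that directs the degradation of a matching mRNA. The cells were transfected transiently and total RNA was extracted 24 h later. Control cells received a nonsense siRNA (n = 3), and the others the YAP1-directed siRNAs siYAP1 (n = 3) and siYAP2 (n = 3), the TAZ-directed siRNAs siTAZ2 (n = 3) and siTAZ3 (n = 2), and 2 groups given both kinds, siTAZ2_siYAP1 (n = 3) and siTAZ3_siYAP2 (n = 2). Each siRNA given singly was at 20 nM, and the total in combined groups was 40 nM, so the combination and the larger total dose cannot be told apart. The dose of the control can be read from the labels as either of these. The pairs used different duplexes throughout, but they share the 3 control arrays. The labels do not tell whether replicates came from separate cultures, and p-values therefore cover only the spread among these arrays, possibly technical.

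YAP (gene YAP1) and TAZ (gene WWTR1) are related transcriptional co-activators at the end of the Hippo pathway. They do not bind DNA themselves; in the nucleus both bind the TEAD transcription factors and raise the expression of a shared set of genes, among them ANKRD1, CCN1 and CCN2, while Hippo kinases phosphorylate them and keep them in the cytoplasm. In liver the pathway is known for limiting organ size, and because the co-activators overlap in function, loss of either can be partly covered by the other.

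The measure was the interaction on the log2 scale. For each pair, the YAP siRNA's change in cells without TAZ siRNA was subtracted from its change in cells with it, and the pairs were averaged. An interaction of 0 means that the folds of the single siRNAs multiply in the combination. A gene was called where the adjusted p of limma was under 0.05. The control and YAP arrays come from an earlier deposit than the TAZ and combined arrays. A difference between the deposits that adds the same amount to every array of a gene cancels in the interaction, and the YAP change alone and the YAP change on top of TAZ siRNA have no array in common. Such a difference does not cancel in the TAZ and combined changes against control, nor in the sum of the single changes. In these changes and in the sorting, siRNA and deposit cannot be told apart.

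The arrays were of 1 kind: all 19 held the same sorted values, with a median of 4.83. The array labelled siTAZ2 replicate 3 stood apart, with a median correlation of 0.9866 with the other arrays against 0.9927 or more for each of the others. The main counts and several genes are also given without it; the counts by direction of the single and added changes were not recomputed. All 11 hepatoma markers, such as ALB and AFP, had a control mean above 7, and none of the 8 fibroblast and 6 endothelial markers did. Of 5 immune markers 2 did, CD14 and CD68.

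A departure from additivity was called for few genes. The interaction was called for 32 of 25579 genes (0.125%), 4 higher (0.0156%) and 28 lower (0.109%), and the limma p was under 0.05 before adjustment for 1765. The YAP siRNAs alone changed 443 genes (1.73%), the TAZ siRNAs 503 (1.97%) and both together 662 (2.59%), and on top of a TAZ siRNA the YAP siRNAs changed 191 (0.747%). Among 1071 genes with a called change in any of the YAP, TAZ or combined groups, 1 was stronger than additive, 31 were weaker, 683 were additive within 0.5 on the log2 scale, and 356 were unresolved. Additive here means no interaction call and a 95% confidence interval of the interaction within 0.5 of 0. Unresolved means that the interval reached past that margin. The gene that was stronger than additive was ANKRD1. The 32 interactions had the same sign in each pair, 8 were called in each pair alone and 10 in neither alone.

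**Figure D1:**
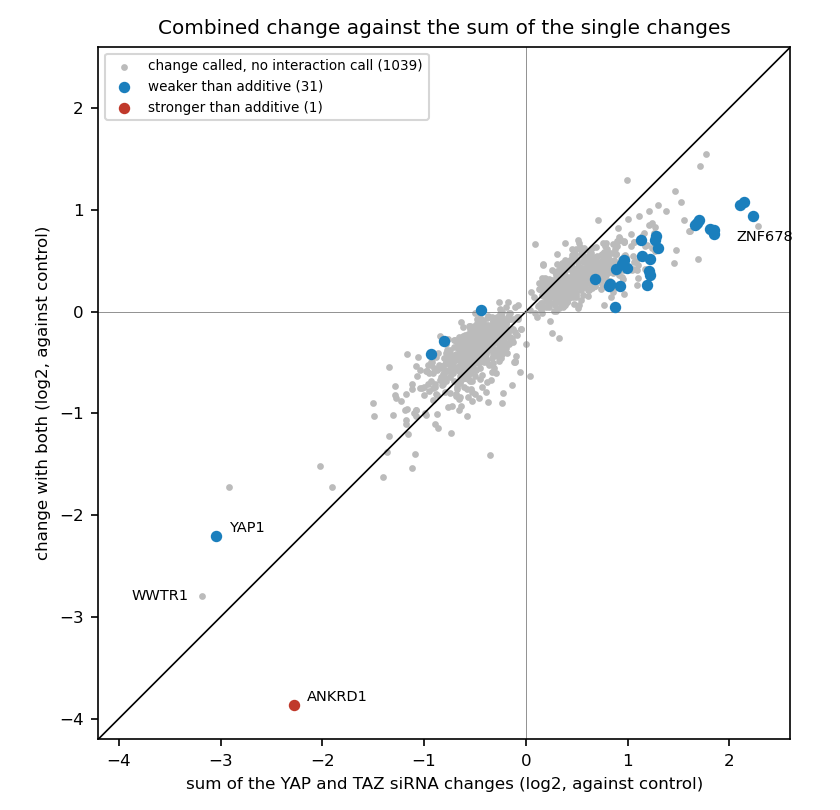
For genes with a called change, the log2 change of the combined groups against control (vertical axis) is plotted against the sum of the YAP and TAZ siRNA changes (horizontal axis), with a line where they are equal. ANKRD1 (red) lies below the line at −3.86 against a sum of −2.27, and 31 genes (blue) lie nearer to 0 than their sum; the 1039 grey points had no interaction call.

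The count depended on single arrays. It was 100 (0.391%, 29 higher and 71 lower) without siTAZ2 replicate 3, and all 32 genes were among them. Without that array the counts were 1144 for YAP, 1199 for TAZ and 1578 for combined siRNAs against control and 331 for YAP on top of TAZ siRNA, and 9 genes sorted as stronger, 91 as weaker and 1924 as additive. The count of interactions was 17, 17 and 20 without control replicates 1, 2 and 3, and 19 without siYAP1 replicate 2. It was 16, 21 and 18 without siYAP2 replicates 1, 2 and 3. In other fits it moved less, as to 26 and 24 without siYAP1 replicates 1 and 3 and to 35 without siTAZ2 replicate 1. Without siTAZ3 replicates 1 and 2 it was 20 and 17, without siTAZ2_siYAP1 replicate 2 it was 16, and without siTAZ3_siYAP2 replicate 2 it was 20. The call held in all 19 of these fits for 15 of the 32 genes, including ANKRD1, YAP1, DSC2, DRAM1, SMIM15, VPS4B and CFDP1.

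The siRNA targets are given first. YAP1 read 9.87, 9.81 and 9.83 in control, 7.14, 7.0 and 7.18 with siYAP1, and 7.11, 7.25 and 7.02 with siYAP2. It read 9.67, 9.70 and 9.42 with siTAZ2, 9.43 and 9.42 with siTAZ3, 7.55, 7.53 and 7.51 with siTAZ2_siYAP1, and 7.63 and 7.85 with siTAZ3_siYAP2. Every array that received a YAP siRNA was below every array that did not, and the 5 combined arrays were above the 6 with a YAP siRNA alone. The YAP siRNAs alone lowered YAP1 by a log2 change of −2.72, and on top of a TAZ siRNA the change was −1.88. The interaction was 0.84 (SE 0.098, 95% interval 0.63 to 1.05, limma adjusted p = 0.00105), 0.66 in the siTAZ2 pair and 1.02 in the siTAZ3 pair, both called. In the combined groups 20.2% and 23.4% of the control level of YAP1 remained, against 15.1% and 15.3% with the YAP siRNAs alone. YAP1 thus sorted as weaker than additive, and the knockdown of the target itself was less deep where a TAZ siRNA was present. Part of the sum came from the arrays with a TAZ siRNA alone, in which YAP1 differed from control by −0.32 (limma adjusted p = 0.0367). That comparison crosses the deposits.

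WWTR1 read 9.61, 9.49 and 9.54 in control, between 9.10 and 9.32 on the 6 arrays with a YAP siRNA, 7.13, 7.02 and 6.77 with siTAZ2, and 6.33 and 6.61 with siTAZ3. The combined arrays read 7.24, 7.05 and 7.32 with siTAZ2_siYAP1 and 6.44 and 6.15 with siTAZ3_siYAP2. A YAP siRNA on top of the TAZ siRNA changed WWTR1 by 0.03, within the spread between arrays. That mean joins a rise on top of siTAZ2 and a fall on top of siTAZ3, with overlapping arrays in each pair. The interaction of WWTR1 was 0.38 (95% interval 0.12 to 0.65) and was not called (limma adjusted p = 0.487), so WWTR1 was unresolved.

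ANKRD1, on chromosome 10, encodes a cardiac ankyrin repeat protein that acts in the nucleus and at the sarcomere, and is a standard reporter of YAP and TAZ activity. Its promoter is shown because it was the gene sorted as stronger than additive, beside that of CCN2, another standard target. TEAD factors are known to bind the motif GGAATG. The sequences are RefSeq's for GRCh38.p14, from 250 bases before to 50 bases after the gene start, chr10:90921038-90921337 on the minus strand for ANKRD1 and chr6:131951323-131951622 on the minus strand for CCN2, and the capitals mark GGAATG.
ANKRD1: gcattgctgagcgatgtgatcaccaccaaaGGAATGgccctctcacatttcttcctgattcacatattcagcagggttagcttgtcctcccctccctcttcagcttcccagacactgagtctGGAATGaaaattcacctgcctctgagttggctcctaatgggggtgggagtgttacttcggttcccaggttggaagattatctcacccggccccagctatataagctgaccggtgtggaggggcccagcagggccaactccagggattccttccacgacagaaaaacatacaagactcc
CCN2: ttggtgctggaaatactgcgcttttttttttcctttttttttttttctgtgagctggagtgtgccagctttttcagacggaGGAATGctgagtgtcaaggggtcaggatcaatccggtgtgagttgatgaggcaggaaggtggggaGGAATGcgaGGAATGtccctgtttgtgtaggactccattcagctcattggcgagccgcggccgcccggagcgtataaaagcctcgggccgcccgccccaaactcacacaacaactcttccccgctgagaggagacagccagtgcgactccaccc
The motif was searched on both strands, which on the opposite strand reads CATTCC. ANKRD1 held it 2 times, beginning 220 and 128 bases before the start, and CCN2 held it 3 times, beginning 169, 104 and 95 bases before the start, each in the direction of the gene. Of 35116 RefSeq windows of this length 14% held the motif on either strand. Of the 27 genes that were weaker than additive and have a window, 5 held it, and of 17 genes of the YAP and TAZ target list with a window, 10 did. Over 27305 genes with a window, 16.7% held it. A match describes the letters only.

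ANKRD1 read 8.82, 8.84 and 8.80 in control and 8.95, 8.82 and 8.72 with siYAP1, and these groups overlap. It read 8.28, 7.99 and 8.15 with siYAP2, 6.71, 6.70 and 7.48 with siTAZ2, and 6.81 and 6.78 with siTAZ3. With both it read 5.02, 5.12 and 4.96 (siTAZ2_siYAP1) and 5.13 and 4.63 (siTAZ3_siYAP2), below every array with a single siRNA. The YAP siRNAs alone thus made a small change where TAZ was left in place: the mean was −0.33 (limma adjusted p = 0.457), with 0.01 for siYAP1 and −0.68 for siYAP2, of which the latter was called (limma adjusted p = 0.0334). On top of a TAZ siRNA the same duplexes changed ANKRD1 by −1.93 and −1.91, or to 26.3% and 26.5% of the level with the TAZ siRNA, and both changes were called (limma adjusted p = 4e-05 and 0.000247).

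The interaction of ANKRD1 was −1.59 (SE 0.197, 95% interval −2.01 to −1.17, limma adjusted p = 0.002). It was −1.94 in the siTAZ2 pair (limma adjusted p = 0.0017) and −1.23 in the siTAZ3 pair, where it was not called (limma adjusted p = 0.154), and the pairs were not shown to differ (limma adjusted p = 0.966). Leaving out any array kept the call, with adjusted p between 4.41e-05 and 0.0124. The combined groups were 14.5-fold below control, and their means of 5.03 and 4.88 lie near the array median of 4.83. They are not shown to be above background, so the fall in the combination is a lower bound. The call rests on folds. On a linear scale, as a share of the control level, the interaction of ANKRD1 was −0.0148 and was not called (limma adjusted p = 0.979). With the TAZ siRNAs 27.6% and 24.6% of the control level remained, and with both 7.26% and 6.52%.

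**Figure D2:**
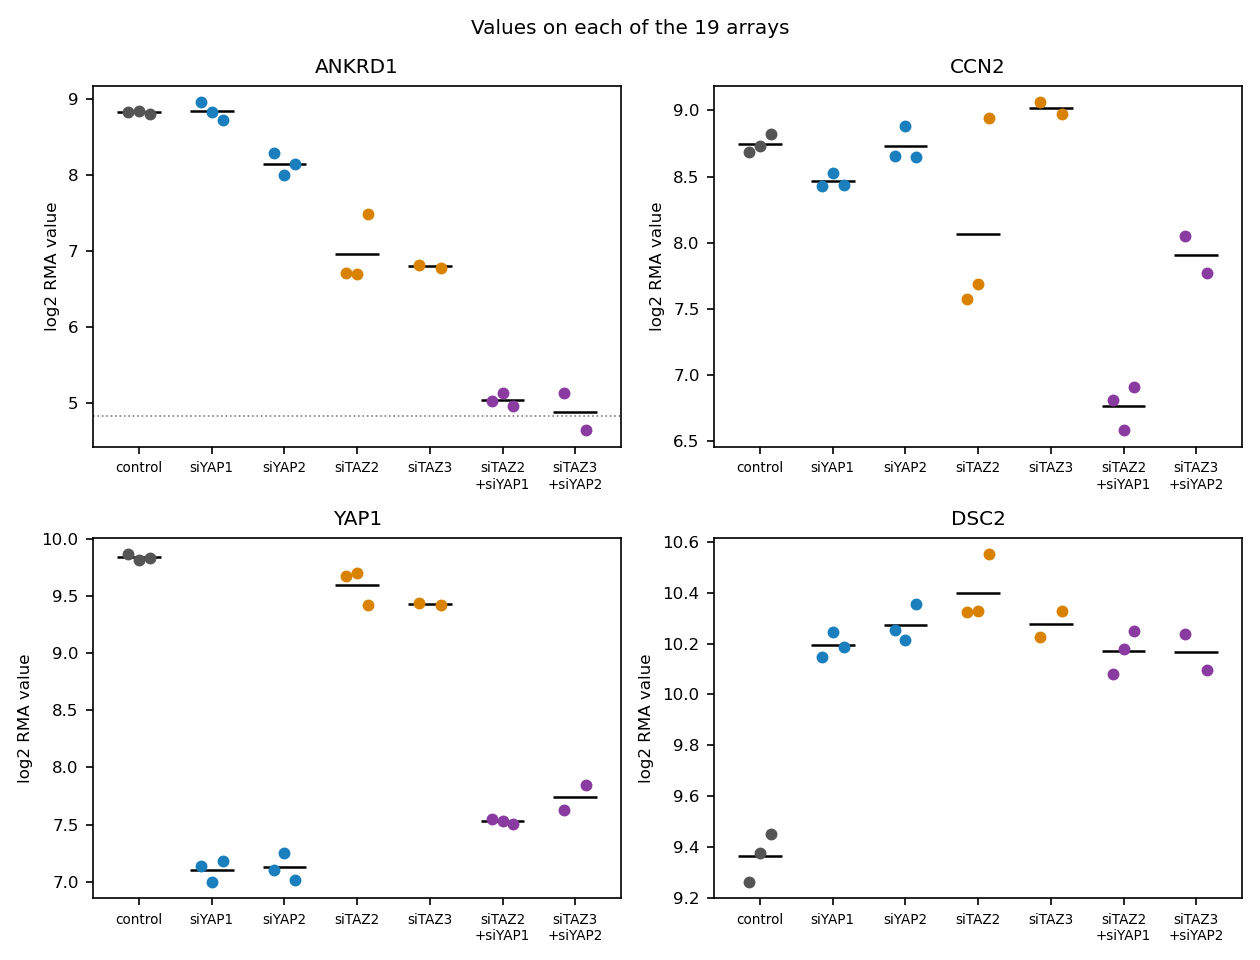
Log2 RMA values of ANKRD1, CCN2, YAP1 and DSC2 on each of the 19 arrays (points) by siRNA group, with group means (lines); the dotted line marks the array median of 4.83. The 5 combined arrays of ANKRD1 lie between 4.63 and 5.13, below all others, while in DSC2 the 3 control arrays lie below all 16 arrays with an siRNA against YAP, TAZ or both.

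CCN2 encodes connective tissue growth factor, a secreted matricellular protein. It read 8.68, 8.73 and 8.82 in control, 8.43, 8.53 and 8.44 with siYAP1, and 8.66, 8.88 and 8.65 with siYAP2. It read 7.58, 7.68 and 8.94 with siTAZ2, 9.06 and 8.97 with siTAZ3, 6.81, 6.58 and 6.91 with siTAZ2_siYAP1, and 8.05 and 7.77 with siTAZ3_siYAP2. siYAP1 and siYAP2 alone changed it by −0.28 and −0.02, neither called, and in each pair the combined arrays were below all arrays of the TAZ siRNA used. On top of a TAZ siRNA the YAP siRNAs changed CCN2 by −1.20 (limma adjusted p = 0.00688), to 40.6% and 46.4% of the level with the TAZ siRNA. The interaction was −1.05 and was not called over all arrays (SE 0.286, limma adjusted p = 0.318). The array labelled siTAZ2 replicate 3, at 8.94, lay far from the 2 others of its group. Without it the interaction was −0.84 and was called (limma adjusted p = 0.00266), −0.58 and −1.09 in the pairs, and CCN2 then sorted as stronger than additive.

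The other named targets came closer to their sums. CCN1, a matricellular relative of CCN2, read 6.83, 6.87 and 6.62 in control, between 5.92 and 6.18 on the 6 YAP arrays, between 5.86 and 6.29 on the 5 TAZ arrays, and between 4.85 and 5.42 on the 5 combined arrays. The YAP siRNAs changed it by −0.71 alone and by −0.93 on top of a TAZ siRNA, both called. Its interaction was −0.22 (95% interval −0.53 to 0.09, limma adjusted p = 0.834), so CCN1 was unresolved by a small amount, and its combined means were near the array median as well. AMOTL2, which encodes an angiomotin that binds YAP and is itself a target, changed by −0.26 alone (not called) and −0.45 on top (called), and with an interaction of −0.19 (95% interval −0.46 to 0.08) it was additive within the margin.

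Over the list of 22 YAP and TAZ target genes, 1 had a called interaction (lower, ANKRD1), 0 were higher, and 21 were not called, 3 of them additive and 5 unresolved. Over all genes 0.125% were called, 0.109% lower. The median interaction of the list was −0.14, against 0.01 over all genes. Of 25 Hippo pathway and TEAD genes limma called none after adjustment and 1 at a p under 0.05 before it, with a median of −0.09. Without siTAZ2 replicate 3 the genes that were stronger than additive were ANKRD1, CCN2, CAVIN2, RASAL2, DKK1, CHST9, EDEM1, SLC7A11 and PALMD, 9 in all, chosen after their values were seen. DKK1, a secreted Wnt antagonist, then had an interaction of −0.61 (limma adjusted p = 0.00755), and CAVIN2, a protein of caveolae, one of −0.69 (limma adjusted p = 0.0127). The sorting weighs distance from 0 and not sign. In that fit PALMD was above control with YAP and with TAZ siRNAs but below it with both (−0.21). DKK1 was slightly above control with YAP siRNAs (0.10), level with it with TAZ siRNAs (0.001) and below it with both (−0.51). In EDEM1 and SLC7A11 the YAP siRNAs made a rise alone (0.61 and 0.41) and a smaller change on top of a TAZ siRNA (0.11 and −0.02).

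The 31 genes that were weaker than additive fell into 2 kinds by direction. In 27 of them, 26 with a gene name, the interaction was negative, and the YAP, TAZ and combined means were all above control. Typical is DSC2, which encodes the desmosomal cadherin desmocollin. DSC2 read 9.26, 9.38 and 9.45 in control, 10.15, 10.24 and 10.19 with siYAP1, and 10.25, 10.21 and 10.36 with siYAP2. It read between 10.23 and 10.55 on the 5 TAZ arrays and between 10.08 and 10.25 on the 5 combined arrays. The 3 control arrays were below all 16 others, and the other groups overlapped. DSC2 rose by 0.87 with a YAP siRNA and by 0.98 with a TAZ siRNA but by 0.81 with both, so that its interaction was −1.04 (SE 0.090, limma adjusted p = 0.000104).

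SMIM15, a gene for a small membrane protein, behaved alike. It read 8.76, 8.78 and 8.61 in control, between 9.60 and 9.72 on the YAP arrays, between 9.25 and 9.57 on the TAZ arrays, and between 9.51 and 9.64 on the combined arrays. Again control alone lay apart, and the interaction was −0.82 (limma adjusted p = 0.000104). DRAM1, a lysosomal membrane protein that is a p53 target and takes part in autophagy, read 6.71, 6.90 and 6.6 in control and between 7.33 and 8.03 on all other arrays. It rose by 1.08 with a YAP siRNA and by 0.81 in the combination, with an interaction of −0.99 (limma adjusted p = 0.000234). VPS4B, an ATPase of the machinery that cuts membrane necks, read 8.18, 8.35 and 8.30 in control and between 9.09 and 9.70 elsewhere, with an interaction of −1.06 (limma adjusted p = 0.000975).

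The same held for most of the 27. The 3 control arrays were below all 16 others in 23 of them, a pattern that 164 of all 25579 genes showed (0.641%), and control was the lowest of the 7 group means in 26. The control mean enters the interaction with a plus sign, so choosing genes by a negative interaction favours a low control. The share over all genes is of genes not so chosen. Without siTAZ2 replicate 3, 62 genes were weaker with a negative interaction, and the control arrays were below all others in 39 of them. The share of all genes with that pattern was not counted without this array. Over all arrays, the YAP siRNAs alone raised the 27 genes by 0.29 to 1.23 (median 0.60), the TAZ siRNAs by 0.325 to 1.15 (median 0.62), and both by 0.04 to 1.08 (median 0.55). On top of a TAZ siRNA the YAP change lay between −0.54 and 0.21 with a median of −0.07, and it was within 0.25 of 0 in 24 of the 27. The range of the 6 siRNA group means, from lowest to highest, had a median of 0.39. A shift of the 3 control arrays alone by a given amount would raise the YAP, TAZ and combined changes together by it and lower the interaction by the same amount. An effect of the control siRNA or of these arrays, and an effect that either knockdown brings to its full extent, cannot be told apart here.

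**Figure D3:**
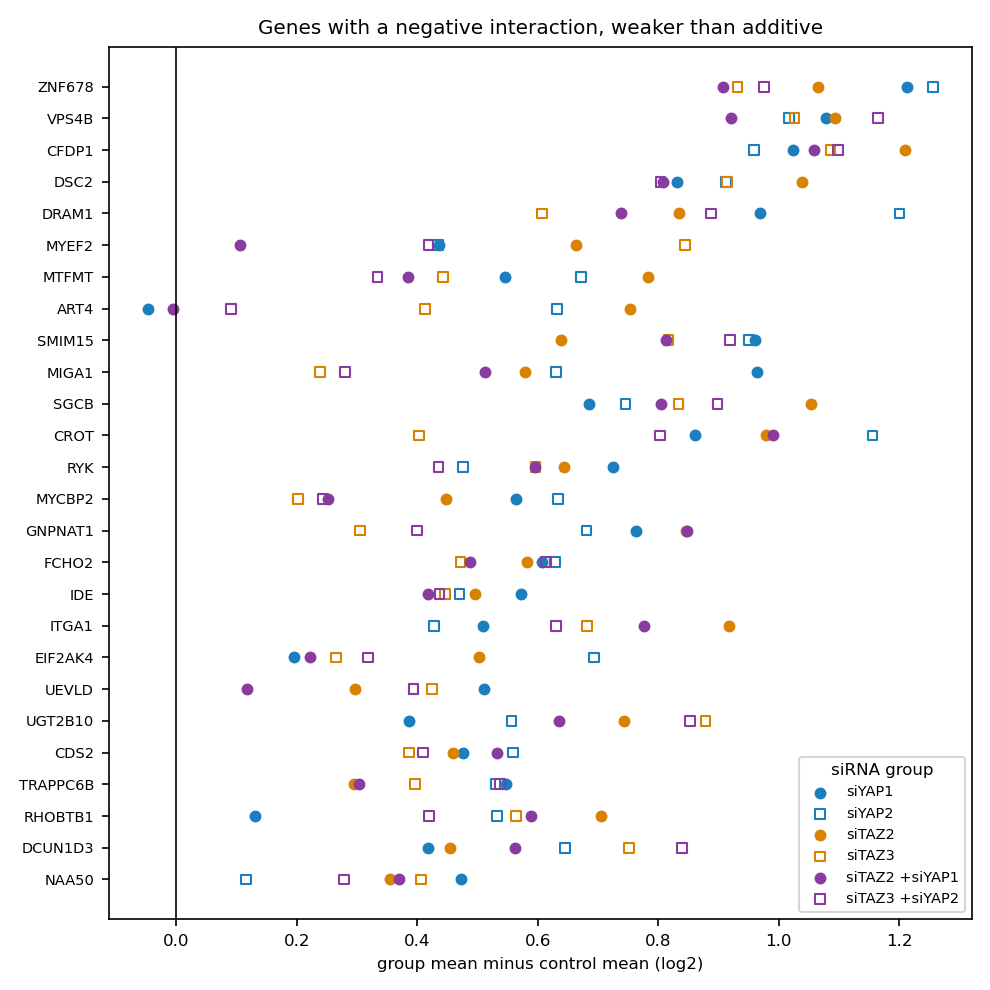
Mean of each siRNA group minus the control mean (log2) for the 26 named genes with a negative interaction that were weaker than additive. Filled circles are siYAP1, siTAZ2 and their combination, and open squares are siYAP2, siTAZ3 and theirs; for the genes with the largest rises, ZNF678, VPS4B, CFDP1 and DSC2, all 6 groups lie between 0.80 and 1.26 above control, and only for ART4 do any fall below it.

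Among the 26 named genes the largest negative interactions were in ZNF678, a zinc finger gene (−1.29, limma adjusted p = 0.0245), VPS4B, CFDP1, a chromatin-associated craniofacial development protein (−1.06, limma adjusted p = 0.00637), DSC2, DRAM1, MYEF2, a repressor of myelin basic protein expression (−0.93), MTFMT, the mitochondrial methionyl-tRNA formyltransferase (−0.86), and ART4 (−0.83). ZNF678 read 4.72, 4.49 and 4.97 in control, near the array median, and its rises are therefore lower bounds. ZNF678 lost the call in 8 of the 19 fits that left out an array, MTFMT in 14 and MYEF2 in 15. The others called were MIGA1, SGCB, CROT, RYK, MYCBP2, GNPNAT1, FCHO2, IDE, ITGA1, EIF2AK4, UEVLD, UGT2B10, CDS2, TRAPPC6B, RHOBTB1, DCUN1D3 and NAA50, named after their values were seen, with interactions between −0.81 and −0.35. They include RYK, a Wnt co-receptor, ITGA1, a collagen-binding integrin subunit, IDE, the insulin-degrading enzyme, and EIF2AK4, a kinase that senses amino acid shortage.

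ART4, a gene of the mono-ADP-ribosyltransferase family that carries a blood group, departed from this pattern. It read 7.01, 6.79 and 7.04 in control, 6.79, 6.97 and 6.93 with siYAP1, 7.45, 7.85 and 7.44 with siYAP2, 7.68, 7.82 and 7.59 with siTAZ2, and 7.21 and 7.50 with siTAZ3. The combined arrays read 6.70, 7.04 and 7.08, and 6.93 and 7.15, and overlapped control. Its rise with a TAZ siRNA (0.58, called) was not seen with both siRNAs (0.04, not called), and ART4 was the only 1 of the 27 for which the YAP change on top of a TAZ siRNA was called (−0.54, limma adjusted p = 0.0202). Its interaction passed narrowly (limma adjusted p = 0.0493) and lost the call in 18 of the 19 fits without an array, all but that without siTAZ2 replicate 3. MYEF2 was similar in direction, at 0.75 with a TAZ siRNA and 0.26 with both, but its change on top, −0.49, was not called (limma adjusted p = 0.0614).

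In 4 of the 31 genes the interaction was positive, among them YAP1 and a probe set without a gene name. Without siTAZ2 replicate 3 there were 29 of 91, in 27 of which all the changes were below control, and in 5 of the 29 the control arrays were above all others. The share of all genes with control above all others was not counted without this array. WT1, the Wilms tumour transcription factor, read 5.89, 6.02 and 6.12 in control, between 5.55 and 5.82 with the YAP siRNAs, between 5.51 and 5.61 with the TAZ siRNAs, and between 5.57 and 5.87 with both. It fell with each single siRNA (−0.35 and −0.45) and by no more with both (−0.28), with an interaction of 0.51 (limma adjusted p = 0.0346), and the 3 control arrays were above all 16 others, as for 57 of all genes (0.223%). TMED5, a cargo receptor of the early secretory pathway, read 9.64, 9.64 and 9.76 with siYAP2 and between 10.39 and 10.72 on all other arrays. Its interaction was 0.74 in the siTAZ3 pair (limma adjusted p = 0.00526) and 0.16, not called, in the siTAZ2 pair. The call was lost for WT1 in 14 and for TMED5 in 8 of the 19 fits without an array.

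**Figure D4:**
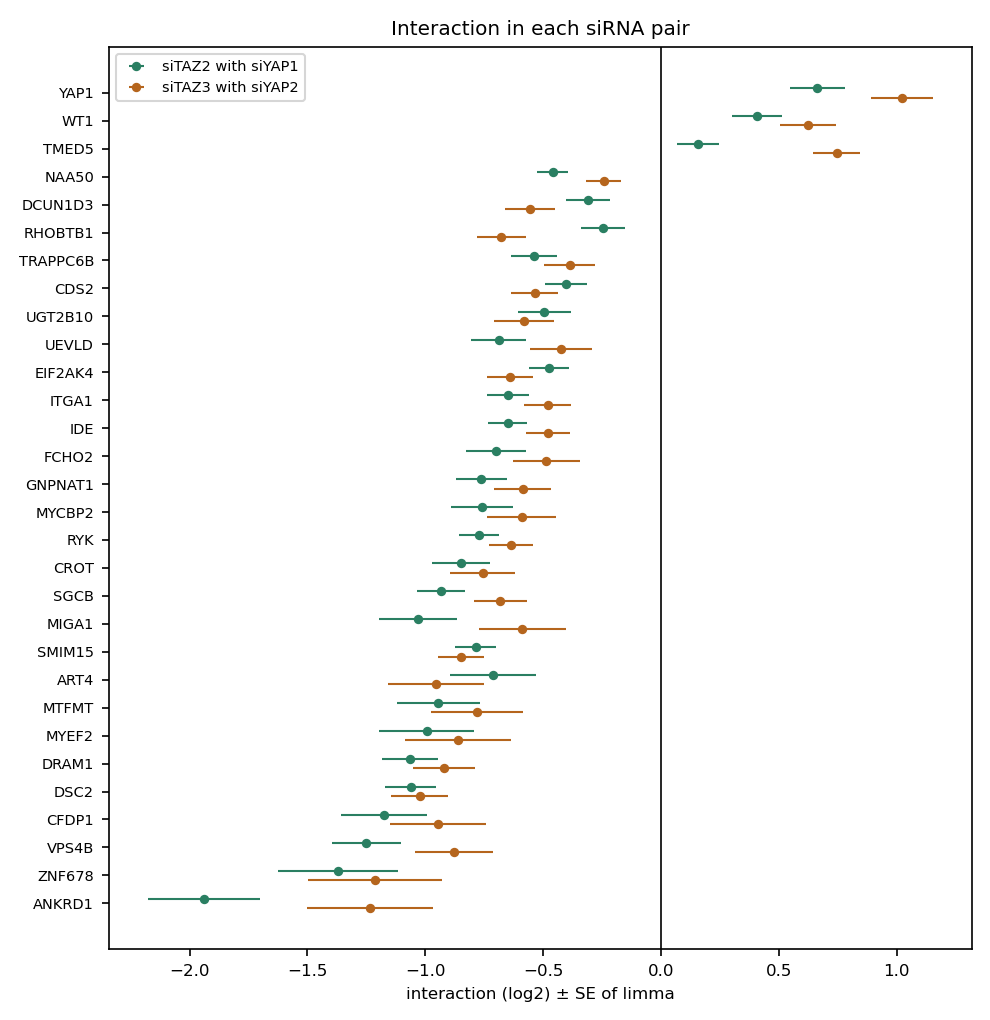
Interaction (log2) with limma's standard error in the siTAZ2 with siYAP1 pair (green) and in the siTAZ3 with siYAP2 pair (brown) for the 30 named genes with a called mean interaction. All have the same sign in each pair; ANKRD1 is at −1.94 and −1.23 and YAP1 at 0.66 and 1.02, and both pairs use the same 3 control arrays.

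Some genes changed by both kinds of siRNA in the same direction did not add. YAP and TAZ siRNAs raised 0.739% and 1.13% of all genes and lowered 0.993% and 0.841%. Of 103 genes called with each in the same direction, 81 rose and 22 fell, and 5 more were called in opposite directions. Of the 81 that rose, 23 were weaker than additive, 26 were additive, 32 were unresolved and 0 were stronger. Of the 22 that fell, 2 were weaker, 10 additive, 10 unresolved and 0 stronger. Because the same 3 control arrays enter both single changes, noise in these arrays raises the sum and lowers the interaction at once, which moves genes chosen on both calls towards weaker.

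Several genes did add within the margin. LIPA, the lysosomal acid lipase, read 9.61, 9.60 and 9.55 in control, 9.78, 9.57 and 9.79 with siYAP1, 10.33, 10.25 and 10.35 with siYAP2, and between 9.85 and 10.33 on the TAZ arrays. On the 5 combined arrays it read between 10.21 and 10.36, at or near the top of the range. Its combined rise of 0.70 compares with a sum of 0.90, and the interaction was −0.20 (95% interval −0.39 to −0.02, limma adjusted p = 0.675). The lipid phosphatase PLPP1, the complement regulator C4BPA and SOBP were the other largest additive rises, with sums between 0.82 and 0.90. Among the additive falls CHML, a Rab escort protein, changed by −0.99 with both against a sum of −1.09, and the others were CMPK1, a nucleotide kinase, the tight junction gene CLDN6 and the arginyltransferase ATE1. These means can rest on 1 duplex: CHML changed by −1.12 with siYAP1 and by −0.18, not called, with siYAP2. For ATE1 the interaction was called, as higher, in the siTAZ2 with siYAP1 pair taken alone. ATE1 was thus additive only as a mean of the pairs.

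The pairs taken alone added further genes. The interaction was called for 28 genes (0.109%) in the siTAZ2 with siYAP1 pair, 7 higher (0.0274%) and 21 lower (0.0821%), and for 21 genes (0.0821%) in the siTAZ3 with siYAP2 pair, 13 higher (0.0508%) and 8 lower (0.0313%). Without siTAZ2 replicate 3 the counts were 50 and 99. The higher ones were in every case genes that the YAP siRNA of that pair lowered when given alone. The change alone enters the interaction with a minus sign, so this choice favours falls alone and smaller falls on top. In the siTAZ2 pair all 7 were called lower with siYAP1 alone, with a median of −1.13, and the same siRNA on top of siTAZ2 gave a median of −0.50. In the siTAZ3 pair all 13 were called lower with siYAP2 alone, with a median of −1.40, against −0.60 on top of siTAZ3. The lower ones again were mostly genes with control apart: the 3 control arrays were below all 16 others for 16 of the 21 and for 8 of the 8. Choosing a lower interaction favours a low control here too, and 0.641% of all genes, not so chosen, had it.

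Several of these genes responded to 1 YAP siRNA and not to the other, and limma's test of the difference between the pairs called 14 genes (0.0547%), 2 higher (0.00782%) and 12 lower (0.0469%), or 32 genes without siTAZ2 replicate 3. ZCRB1, which encodes an RNA-binding protein of the minor spliceosome, read 9.86, 10.02 and 9.88 in control, 7.94, 8.10 and 7.84 with siYAP1 and 9.97, 10.07 and 9.94 with siYAP2. With siTAZ2 it read 9.80, 9.81 and 9.74, and with siTAZ2_siYAP1 8.78, 8.69 and 8.88. The combined arrays thus lay between the siYAP1 arrays and the rest with no overlap. siYAP1 changed it by −1.96 alone and by −1.0 on top of siTAZ2, an interaction of 0.96 (limma adjusted p = 0.00093), while siYAP2 changed it by 0.08 alone. CAT, the catalase that breaks down hydrogen peroxide, followed the same course, at 8.13, 8.35 and 8.33 with siYAP1 alone, 9.21, 9.22 and 9.27 with siTAZ2_siYAP1, and between 9.92 and 10.26 on the 13 other arrays.

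LIN7C, a scaffold protein of epithelial cell junctions, was the counterpart for siYAP2. It read 9.34, 9.47 and 9.43 in control, 7.10, 7.15 and 7.08 with siYAP2, 9.85 and 10.07 with siTAZ3, and 8.38 and 8.43 with siTAZ3_siYAP2. The change was −2.30 alone and −1.56 on top, again with the combined arrays in between, whereas with siYAP1 LIN7C rose by 0.53 alone and changed by −0.03 on top. OSBPL8, a lipid transfer protein of the endoplasmic reticulum, changed by −1.52 and −0.55 with siYAP2, and WSB2, a substrate receptor of a ubiquitin ligase, by −1.29 and −0.53. NDRG1, a hypoxia-responsive gene, changed by −1.46 and −0.19 with siYAP2, and its mean interaction missed the threshold (0.74, limma adjusted p = 0.0587), but passed it without siTAZ2 replicate 3 (0.67, limma adjusted p = 0.0153).

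**Figure D5:**
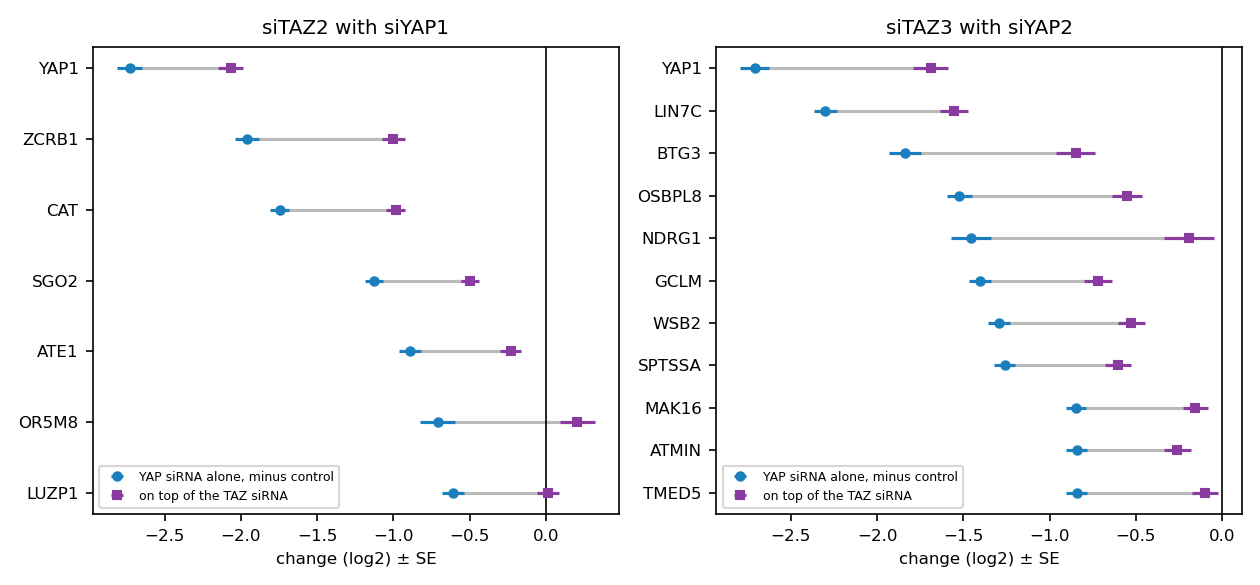
Log2 change (with limma's standard error) made by siYAP1 (left) and siYAP2 (right) alone against control (blue circles) and on top of the TAZ siRNA of the pair (purple squares), for the named genes with a higher interaction in that pair. By this choice every gene lies higher with the TAZ siRNA than without it, as for ZCRB1 (−1.96 and −1.0) and LIN7C (−2.30 and −1.56).

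Among genes chosen for a fall with siYAP2 alone, most falls were smaller on top of siTAZ3, beyond the genes with a called interaction. siYAP2 alone lowered 2.19% of all genes, and siYAP1 alone 0.485%. On top of siTAZ3 and siTAZ2 they lowered 0.512% and 0.211%. For siYAP2 these comparisons differ in precision, as siYAP2 alone rests on 3 arrays a group and siYAP2 on top of siTAZ3 on 2. Fewer siYAP2 calls on top can follow from this, and its part was not tested. For siYAP1 both comparisons rest on 3 arrays a group and have the same standard error in limma. The siTAZ2 group holds the replicate that stood apart, and the part of that array was not tested either. Of 108 called genes that siYAP2 alone lowered by 1 or more on the log2 scale, all 108 were also lower on top of siTAZ3, 99 of them by less, with medians of −1.31 alone and −0.81 on top, and 69 were called there. For siYAP1 there were 16 such genes, with medians of −1.15 and −0.96, 14 of them smaller on top and 13 called. Genes chosen for a large change alone tend to show a smaller one in other arrays. Genes chosen the other way, by a called fall of 1 or more on top of the TAZ siRNA, had medians of −1.36 on top and −1.46 alone for siYAP2 (34 genes), and of −1.16 on top and −0.93 alone for siYAP1 (12 genes). Of these the change was smaller on top than alone in 19 of the 34 and in 4 of the 12. With siYAP2 the median fall was thus no larger on top of siTAZ3 for the genes chosen there, though they were split nearly evenly, and with siYAP1 it was larger. YAP1 itself fell less in the combined groups, beside these values, and its part in them was not tested.

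Among genes chosen for a rise with a YAP siRNA alone, the rises were smaller on top. siYAP1 and siYAP2 alone raised 0.395% and 1.53% of all genes, and on top of the TAZ siRNA 0.00782% and 0.0508%. As for the falls, the comparison on top is less precise for siYAP2, which can lower the number of its calls. Of 12 called genes that siYAP2 alone raised by 1 or more, all 12 were raised by less on top of siTAZ3 (medians 1.04 and 0.35) and 0 were called there. For siYAP1 4 such genes had medians of 1.15 alone and −0.16 on top, with 0 called. Chosen the other way, by a called rise of 1 or more on top of the TAZ siRNA, there was 1 gene for siYAP2, which rose by 0.844 alone and 1.25 on top, and 0 for siYAP1. In the genes chosen alone, the 3 control arrays were below all other arrays for 6 of the 12 and for 3 of the 4. Of all genes 0.641% had this pattern, which choosing by a rise against control favours.

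Over all arrays the lists of liver and cell cycle genes held no called interaction, where 0.125% of all genes had one. At that share lists of this size would hold few calls or none. No gene of the lists for G1/S and DNA replication (28 measured), mitosis (26), plasma proteins (26), bile acid and drug metabolism (19), hepatocyte transcription factors (10), cholesterol synthesis (16), fatty acid oxidation (14), interferon response (23), small RNA machinery (20), NF-kB targets (15), hypoxia and glycolysis (20), the unfolded protein response (20), cytoskeleton and adhesion (21) or Wnt feedback (15) was called by limma after adjustment, and before it between 1 and 5 genes of each list had a p under 0.05. Without siTAZ2 replicate 3, 8 genes in 6 of these lists were called, of 297 genes measured in these lists and the Hippo list. Over all genes 0.391% were called in that fit. CDC45, a replication factor, EPAS1, a hypoxia-inducible factor subunit, and NDRG1 were higher. XRN1, an exoribonuclease, FOXA1, a hepatocyte transcription factor, EDEM1 and SLC7A11 of the unfolded protein response list, and DKK1 were lower. The medians of all the lists lay between −0.14 and 0.13. The p53 target list had 1 call of 18 (DRAM1, lower) and the autophagy and lysosome list 2 of 19 (VPS4B and DRAM1, lower), both genes with control apart, against 0.125% of all genes. Without that array the p53 list also held DDB2, a DNA damage sensor (−0.52, limma adjusted p = 0.024), and GDF15, a stress-induced cytokine (0.40, limma adjusted p = 0.0248).

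How small an interaction these arrays could show is given by the intervals. The median standard error of the interaction over all genes was 0.115 and the 95% interval reached a median of 0.245 to either side, and the interval lay within 0.5 of 0 for 19654 of the 25579 genes. On simulated arrays of the same genes the fit recovered 47% of interactions of 0.5 and 90% of interactions of 1. The simulated noise was independent, with the same spread on every array, so no array stood apart. The simulation also held more calls, 143 against 32, which makes the adjusted threshold easier to pass. The shares for the real arrays can therefore differ.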

How the data were processed

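Biotin-labelled RNA of HepG2 cells was measured on Affymetrix arrays, per the labels' protocols. The deposited values are log2 values, and per the submitters' processing notes the authors used RMA, which corrects the background, quantile normalizes and summarises probe sets, so that a shift of all genes between groups is removed. No version or probe-set definition is given. The 25582 probe sets include 24244 with 1 gene symbol and 1338 without, counted but not named; 24195 symbols were matched to RefSeq (GRCh38.p14). For 3 symbols with 2 probe sets the brighter was kept, leaving 25579 genes. Arrays have no read depth, and their number limits the precision.

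Groups were taken from the sample titles. limma 3.58.1 under R 4.3.3 was used to fit 7 group means over the 19 arrays, with moderated variances and no filter, and p-values were adjusted by Benjamini-Hochberg over all genes at a threshold of 0.05. SE is limma's moderated standard error. A called gene was stronger than additive where the combined change lay farther from 0 than the sum of the single changes and weaker where nearer. Named were YAP1, WWTR1, CCN1, CCN2, ANKRD1 and AMOTL2, the 10 largest called interactions in each direction with the same sign in each pair, called list members, the 4 largest additive rises and falls called with both YAP and TAZ siRNAs, and the 3 largest in each direction of the genes called between the pairs; all others were named after their values were seen. The groups, gene lists and tests were chosen with earlier results of these data known.

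The fit was tested on simulated data, in which 25579 genes held 100 interactions of 0.5 and 100 of 1 on the log2 scale. It made 143 calls, of which 6 were false. Alternatives were an intensity trend, removal of the dimmest 30%, averaged probe sets of a symbol, repeated quantile normalization, median centring, a replicate block, array weights, the 4 groups of a pair alone, a linear scale, other margins, another sorting rule, and leaving out each array.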

Additional observations from a re-analysis of the deposited data

Results flagged for a closer look

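The interaction differed between the siRNA pairs, by limma's test of the difference itself, for 14 genes (0.0547%), of which 3 have no gene name. In 2 of them the siTAZ2 with siYAP1 pair had the higher interaction, and in 12 the siTAZ3 with siYAP2 pair did. The largest differences, the first pair minus the second, were 1.10 for ZCRB1 and 0.88 for CAT in the one direction, and −1.31 for LIN7C, −1.09 for WSB2 and −1.06 for OSBPL8 in the other. In each of these 5 genes the YAP siRNA of 1 pair, and not that of the other, lowered the gene when given alone. The control arrays cancel in this difference. The count was 7 without the dimmest 30% of genes and between 2 and 32 when single arrays were left out.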

How the results depend on the processing

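On a linear scale, as shares of control, the interactions of CCN1 and LIN7C changed sign, to 0.0950 and −0.321, neither called. The other outcomes of the named genes kept their sign, 657 on the same side of the threshold, 89 losing the call and 8 gaining it. Array weights, which gave siTAZ2 replicate 3 a weight of 0.128, raised every count: 121 interactions, 126 in the siTAZ2 pair, 72 in the siTAZ3 pair, 36 between the pairs, 1303 for YAP, 1772 for TAZ, 1579 for combined and 376 for YAP on top of TAZ siRNA, sorted as 10 stronger, 111 weaker, 2289 additive and 601 unresolved. Leaving out single arrays gave 16 to 100 interactions, 17 to 50 and 9 to 99 in the pairs, 2 to 32 between them, 240 to 1144 for YAP, 207 to 1199 for TAZ, 357 to 1578 for combined and 57 to 331 for YAP on top. The sorting then held 1 to 9 stronger, 15 to 91 weaker, 317 to 1924 additive and 218 to 454 unresolved, and the interaction of YAP1 was 0.786 to 0.898 and that of WWTR1 0.310 to 0.457. The highest counts, unresolved apart, came without siTAZ2 replicate 3. Fits without a siTAZ3 or siTAZ3_siYAP2 array leave 1 there, which is assumed to vary like the other groups.

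Replicate numbers gave no clear sign of pairing. Deviations from the group mean on same-numbered arrays of different groups correlated between −0.113 and 0.121 in the earlier and −0.281 and 0.235 in the later deposit. For different numbers the ranges were −0.151 to 0.17 and −0.235 to 0.281. In groups of 2 arrays the deviations mirror each other, so this check cannot settle whether the arrays were paired. With the replicate number as a block, 1 gene was stronger and 30 weaker (23 of them shared), with 8 calls between the pairs, 113 for TAZ, 295 for combined, 416 additive and 229 unresolved. The 4 groups of a pair fitted alone gave 11 and 36 calls. On a linear scale 20 interactions were called, 0 stronger and 20 weaker, with 119 unresolved. Leaving out dim genes gave 7 calls between the pairs. A margin of 0.3 left 226 additive and 813 unresolved, and one of 0.75 left 97 unresolved. Setting the YAP change on top against that alone made 3 genes stronger, ANKRD1, ART4 and MYEF2; ART4 and MYEF2 had sorted as weaker. The causes were not tested.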
